A study of Mus musculus with 23 samples.

Results

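The transcripts followed here encode 2 neurotrophins, Bdnf and Ntf3 (neurotrophin-3), and 4 receptors, namely the TrkB gene Ntrk2, the TrkC gene Ntrk3, the p75 gene Ngfr and the sortilin gene Sort1. They were chosen by name, as the rows of the count tables whose Ensembl identifier belongs to one of these genes in the GRCm39 annotation. All 6 were found among 56941 genes in the tables, and all 6 were among the 14488 genes with enough counts to be tested. Levels are given as CPM, that is, counts per 1000000 counts of a library after TMM scaling between libraries.

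Neurotrophins are secreted as longer precursors, which are cut to the mature growth factor inside the cell or outside it. Mature BDNF acts mainly through the receptor tyrosine kinase TrkB and neurotrophin-3 through TrkC, and both kinases signal through the ERK, PI3K and phospholipase C pathways to promote dendrite growth and synaptic strength in hippocampal neurons. The uncut precursors prefer p75 paired with sortilin, a receptor of the VPS10 family that also sorts proteins, BDNF among them, between the Golgi, endosomes and the cell surface.

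The cultures were made from hippocampi of newborn mice homozygous for Nedd8cKO, an allele in which loxP sites flank the second and the third exon of Nedd8, the gene of a small ubiquitin-like modifier. Neurons received a lentivirus on the first day in vitro that expressed either red fluorescent protein alone (RFP, the control) or CRE-recombinase tagged with it (CRE), in both cases under the Synapsin1 promoter, and RNA was taken at day 12 by the labels. Both groups therefore carried the floxed allele and a virus, and differed in the recombinase. The sample titles give each library a number after the group name and a replicate number. The first number is called a culture here, which the labels do not state. Equal numbers in CRE and RFP are set side by side below, but the labels do not say that they shared a preparation. There were 3 such numbered cultures in each group and 23 libraries, of which 21 entered the comparison (n = 11 in CRE and 10 in RFP). CRE library 3-3 and RFP library 3-2 were left out, as in the count table of the study, and are named below by culture and library number. The libraries outnumber the biological replicates given for this experiment, which are as many as the numbered cultures, and the labels do not say whether libraries with one culture number came from separate dishes or animals. The p-values over libraries therefore measure a spread that may be technical in part, and may be too small. A fit on counts summed per culture (n = 3 and 3) is given beside the result it changes. The sex of the pups was not checked. These were whole dishes, in which cells other than neurons contributed RNA, and in such bulk RNA fewer cells of a type and less of a transcript per cell cannot be told apart.

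Total counts ran from 7430401 to 13345552 in the CRE libraries and from 9833872 to 17112815 in the RFP libraries compared. Nedd8 itself lay between 5.92 and 18.0 CPM in CRE and between 44.1 and 76.0 CPM in RFP, so each of the 21 libraries matched its label. A few libraries stood apart. Mitochondrial transcripts made up 0.26% of CRE 1-3, 1.83% of CRE 3-3 and 3.43% of RFP 2-4, against 7.0% to 11.1% in the other 20 libraries, and RFP 3-2 held 24.2% of its counts on 1 ribosomal RNA gene. CRE 3-2 had a count on 23738 genes, the most of any library. Values without CRE 1-3 and RFP 2-4 are given where they bear on a result.

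Reads were counted per gene, so the start sites of each gene were pooled. For Bdnf this matters most, because it has several first exons with promoters of their own. The basic subset of the GENCODE annotation holds 16 distinct starts of protein-coding Bdnf transcripts, and other annotated starts were not searched. The 250 bases before each start were searched on both strands for the cyclic AMP response element TGACGTCA, its core CGTCA, the NRF2 element TGACNNNGC and the E-box CACGTG, where the core lies inside the full element. Some of the Bdnf windows overlap each other, and some lie partly or wholly in Bdnf exons, so they are not 16 separate promoters. Only 1 of the 16 Bdnf windows held any of the searched elements. That window, shown because it carries a core of the kind bound by CREB, a factor of activity-driven Bdnf transcription, is at chr2:109522531-109522780 of GRCm39 on the plus strand, and the capitals mark the core 35 bases before the start. The window of Sort1 is shown because Sort1 was the only transcript of the 6 to pass the test, and lies at chr3:108191035-108191284 on the plus strand. The window of Sorcs2, a relative of Sort1 that moved the other way, lies at chr5:36555546-36555795 on the minus strand and is shown for comparison.
Bdnf, start with the core: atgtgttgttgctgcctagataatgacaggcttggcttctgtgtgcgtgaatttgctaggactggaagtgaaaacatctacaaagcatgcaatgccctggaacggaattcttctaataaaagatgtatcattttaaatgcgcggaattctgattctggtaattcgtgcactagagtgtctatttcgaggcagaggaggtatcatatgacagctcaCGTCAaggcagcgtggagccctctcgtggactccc
Sort1: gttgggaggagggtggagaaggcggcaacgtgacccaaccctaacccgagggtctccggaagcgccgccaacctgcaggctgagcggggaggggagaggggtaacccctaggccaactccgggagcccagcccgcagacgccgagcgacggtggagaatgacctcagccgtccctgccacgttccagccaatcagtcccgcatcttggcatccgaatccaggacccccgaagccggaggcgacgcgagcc
Sorcs2: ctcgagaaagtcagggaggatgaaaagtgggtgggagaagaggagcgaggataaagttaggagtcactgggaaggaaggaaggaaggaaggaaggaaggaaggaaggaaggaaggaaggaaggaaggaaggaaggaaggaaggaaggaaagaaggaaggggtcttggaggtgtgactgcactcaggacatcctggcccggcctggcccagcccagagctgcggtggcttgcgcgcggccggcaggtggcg
Neither the Sort1 nor the Sorcs2 window held any of the searched letters, and nor did the window before the principal start of the other 5 genes. Across 14448 tested genes with such a window, 2.01% held the full element, 22.5% the core, 10.6% the NRF2 element and 7.44% the E-box. The letters are a description of these windows and were not tied to the measured levels.

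Of the 6 transcripts, 1 passed the test between CRE and RFP. Sort1 fell by 0.27 on the log2 scale, while Bdnf, Ntf3, Ntrk2, Ntrk3 and Ngfr did not pass at an adjusted p of 0.05. With counts summed per culture none of the 6 passed in edgeR, where 2 had an unadjusted p under 0.05. Across all genes tested, 30.2% passed, 16.4% as higher and 13.8% as lower in CRE. A set of 6 is too small to tell 1 call from that share. None of the 6 separated the groups without overlap, as 4.72% of all tested genes did. The median log2 fold change of the 6 was -0.27, beside 0.02 over all genes tested.

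**Figure D1:**
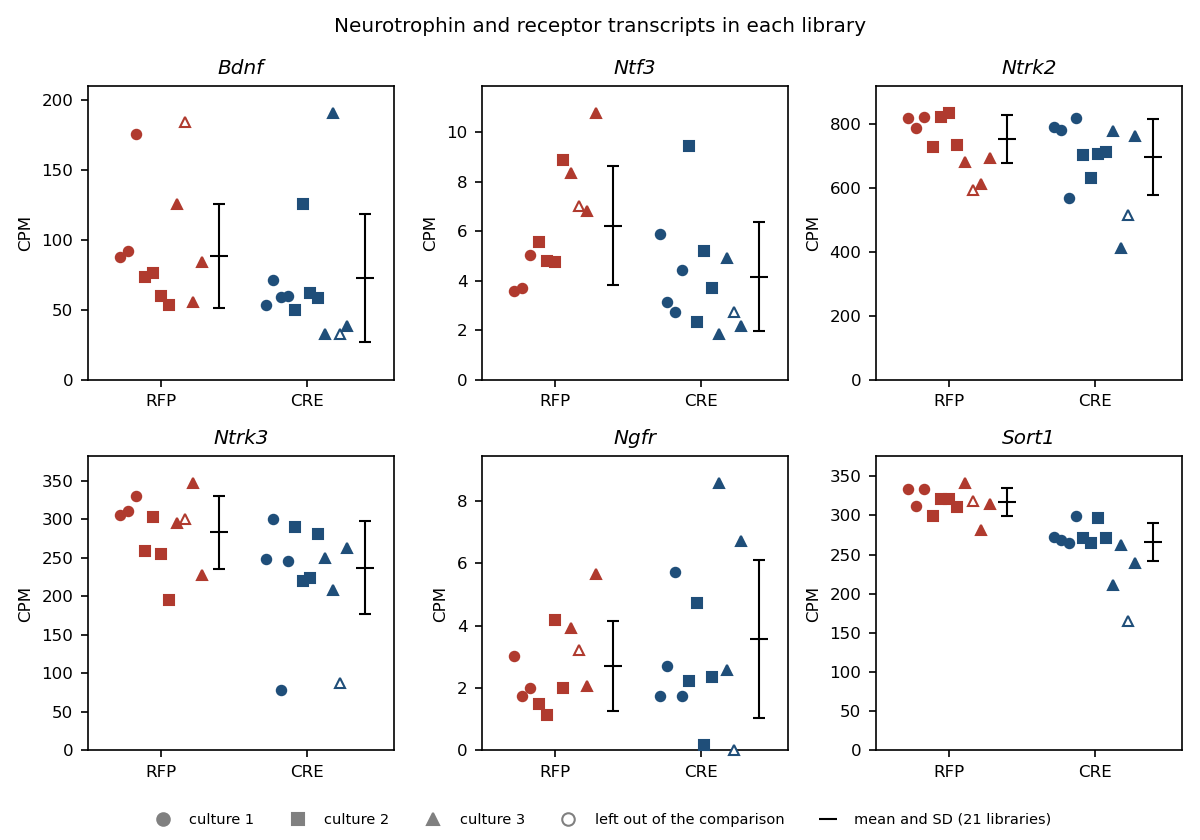
CPM of each transcript in each library (y axis, linear, from 0), with RFP in red and CRE in blue, cultures by symbol, open symbols for the 2 libraries left out, and the mean with SD beside each group. In the Sort1 panel 9 of 11 CRE libraries lie below all RFP libraries, whereas in the other panels the groups overlap more widely.

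The levels differed widely between genes. Per kilobase of the principal annotated transcript, RFP libraries held 83.3 ± 8.34 CPM of Ntrk2, 45.8 ± 2.56 of Sort1, 21.6 ± 9.10 of Bdnf, 14.4 ± 2.41 of Ntrk3, 4.57 ± 1.76 of Ntf3 and 0.79 ± 0.42 of Ngfr (SD, n = 10). The order was the same in CRE, with 77.1 ± 13.2, 38.4 ± 3.52, 17.8 ± 11.2, 12.0 ± 3.06, 3.06 ± 1.62 and 1.03 ± 0.73 CPM per kilobase (SD, n = 11). In RFP the ranges of Ntrk2 and Sort1, of Ntrk3 and Ntf3, and of Ntf3 and Ngfr did not overlap, while Sort1 overlapped Bdnf, and Bdnf overlapped Ntrk3. In CRE, of the neighbours in this order, only Ntrk2 and Sort1 had ranges that stayed apart. The first place depended on the length used: divided by all annotated exons, of which Ntrk2 has 29922 bases, Ntrk2 stood at 25.2 CPM per kilobase and Sort1 at 38.6 in RFP. Full-length TrkB, which carries the kinase, and truncated TrkB, which lacks it, share the Ntrk2 count.

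Among the ligands, Bdnf (chr2:109505045-109557475) is the neurotrophin most abundant in hippocampal neurons and is induced by activity. It ranged from 32.9 to 191 CPM in CRE, with a median of 59.1, and from 53.7 to 176 CPM in RFP, with a median of 80.3. Most CRE libraries sat low in the RFP range or under it, with 4 of 11 below all RFP libraries, but CRE 3-2 at 191 CPM was above all of them and CRE 2-2 at 125 CPM was near the top. The log2 fold change was -0.30 (SE 0.26; adjusted p = 0.438, edgeR's quasi-likelihood test, Benjamini-Hochberg adjusted), with a 95% interval for the fold from 0.56 to 1.19. The cultures did not behave alike. In culture 1, CRE held 60.9 ± 7.52 CPM (SD, n = 4) and RFP 119 ± 49.3 (SD, n = 3). In culture 2 the means were 74.0 ± 34.7 and 66.0 ± 11.1 (SD, n = 4 and 4), and in culture 3 they were 87.5 ± 89.6 and 88.5 ± 35.3 (SD, n = 3 and 3). Without the libraries numbered culture 1 in both groups the log2 fold change was 0.07. Low values were not confined to culture 1, as the CRE libraries below all RFP libraries were 1-1, 2-1, 3-1 and 3-4. Of the 11 CRE libraries, 9 lay below the RFP median. The CRE means of cultures 2 and 3 included the highest CRE libraries, 2-2 and 3-2, and no fit was made without these.

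Ntf3 (chr6:126078375-126143873) encodes neurotrophin-3, the ligand of TrkC. It was scarce, with 20 to 107 counts in a library. CRE libraries ran from 1.84 to 9.45 CPM around a median of 3.71, and RFP libraries from 3.59 to 10.8 CPM around 5.31. Here 5 of 11 CRE libraries were below all RFP libraries and none was above them. The log2 fold change was the lowest of the 6, at -0.59 (SE 0.28), and did not pass (adjusted p = 0.120, edgeR's quasi-likelihood test, Benjamini-Hochberg adjusted), the interval of the fold reaching from 0.44 to 0.99. The difference lay mostly between the libraries numbered culture 3, where CRE held 2.98 ± 1.69 and RFP 8.65 ± 2.01 CPM (SD, n = 3 and 3). In culture 1 the means were 4.06 ± 1.44 in CRE and 4.11 ± 0.81 in RFP (SD, n = 4 and 3), and in culture 2 they were 5.18 ± 3.08 and 6.02 ± 1.96 (SD, n = 4 and 4). Without culture 3 the log2 fold change was -0.21.

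Of the kinases, Ntrk2 (chr13:58954176-59281784) was the most stable transcript relative to its level after Sort1, with a coefficient of variation of 17.2% in CRE and 10.0% in RFP. It ran from 413 to 820 CPM in CRE with a median of 712, and from 612 to 836 CPM in RFP with a median of 760. The groups overlapped over most of this range, with 2 of 11 CRE libraries under it, CRE 3-2 at 413 and CRE 1-3 at 570 CPM. The log2 fold change was -0.13 (SE 0.11; adjusted p = 0.384, edgeR's quasi-likelihood test, Benjamini-Hochberg adjusted), and the interval of the fold ran from 0.79 to 1.06. CRE 3-2, which had the lowest Ntrk2, had the highest Bdnf of the 11.

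Ntrk3 (chr7:77825707-78387760), the receptor of neurotrophin-3, ran from 78.1 to 301 CPM in CRE with a median of 249, and from 195 to 347 CPM in RFP with a median of 299. A single CRE library, 1-3, lay below all RFP libraries, and 10 of 11 CRE libraries lay below the RFP median. The log2 fold change was -0.27 (SE 0.16) and did not pass (adjusted p = 0.203, edgeR's quasi-likelihood test, Benjamini-Hochberg adjusted), with an interval of the fold from 0.66 to 1.03. The lowest library of each group, CRE 1-3 at 78.1 and RFP 2-4 at 195 CPM, was one of those with few mitochondrial counts, and CRE 3-3, left out, held 88.0 CPM. With CRE 1-3 and RFP 2-4 also left out, 19 libraries gave a smaller log2 fold change of -0.23 that passed (adjusted p = 0.0313, edgeR's quasi-likelihood test, Benjamini-Hochberg adjusted), in a fit where 38.1% of all genes did. By culture, CRE stood at 218 ± 96.8 and RFP at 316 ± 13.5 CPM in culture 1 (SD, n = 4 and 3), at 254 ± 37.0 and 253 ± 44.3 in culture 2 (SD, n = 4 and 4), and at 240 ± 28.8 and 290 ± 59.7 in culture 3 (SD, n = 3 and 3).

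Ngfr (chr11:95459638-95478561), the gene of p75, was close to the limit of these libraries, with 2 to 93 counts each. It lay between 0.17 and 8.57 CPM in CRE, with a median of 2.56, and between 1.13 and 5.65 CPM in RFP, with a median of 2.03. CRE spread to both sides of RFP, with 3 of 11 libraries above all RFP libraries (3-1, 3-4 and 1-3) and 1 below. The log2 fold change was 0.37 (SE 0.42; adjusted p = 0.556, edgeR's quasi-likelihood test, Benjamini-Hochberg adjusted). The interval of the fold, from 0.71 to 2.37, was the widest of the 6. Of 9 tested markers of endothelial and mesenchymal cells, described below, 3 were higher in CRE and 6 did not pass. The part of such cells in the Ngfr counts was not tested.

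Sort1 (chr3:108191285-108268842) was the tightest of the 6, with coefficients of variation of 9.18% in CRE and 5.58% in RFP. Sortilin is a partner of p75 for the neurotrophin precursors and carries BDNF into the regulated secretory pathway. Its transcript ran from 211 to 300 CPM in CRE, with a median of 269, and from 282 to 341 CPM in RFP, with a median of 317. All 11 CRE libraries lay below the RFP median and 9 of 11 lay below every RFP library, the exceptions being CRE 1-4 and CRE 2-3. Sort1 fell by 0.27 on the log2 scale (SE 0.08), a fold of 0.83 with an interval from 0.74 to 0.93 (adjusted p = 0.00954, edgeR's quasi-likelihood test, Benjamini-Hochberg adjusted). The mean of each CRE culture was below that of every RFP culture. By number, CRE and RFP held 277 ± 15.8 and 327 ± 12.7 CPM in culture 1 (SD, n = 4 and 3). They held 276 ± 14.3 and 313 ± 10.4 in culture 2 (SD, n = 4 and 4), and 238 ± 25.7 and 312 ± 29.8 in culture 3 (SD, n = 3 and 3). The libraries left out held 166 CPM in CRE 3-3 and 318 CPM in RFP 3-2. The size of the fall was steady, from -0.31 to -0.25 over 13 other settings, but by the same test the call was lost with no filter on low counts (adjusted p = 0.0717), with counts summed per culture (adjusted p = 0.0508), without culture 2 (adjusted p = 0.126) and without culture 3 (adjusted p = 0.0531). The annotation places the noncoding gene Gm12522 over 1760 exonic bases of Sort1 on the opposite strand, and its own median count was 6.

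Ratios taken within a library do not depend on scaling between libraries. The ratio of Bdnf to Ntf3 counts had a median of 17.4 in CRE and 14.0 in RFP (adjusted p = 0.686, permutation test). The ratio of the kinases, Ntrk2 to Ntrk3, had a median of 2.90 in CRE, reaching 7.29 in CRE 1-3, and of 2.7 in RFP (adjusted p = 0.686, permutation test). The ratio of p75 to TrkB, Ngfr to Ntrk2, had a median of 0.0035 in CRE and 0.0031 in RFP (adjusted p = 0.686, permutation test). No difference passed the test for any of the 3 ratios.

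The nearest relatives of these genes were counted in the same fit, where 16.4% of all genes rose and 13.8% fell, with a median of 0.02. Of 8 further ligand and receptor genes, 6 could be tested, of which 3 rose and none fell, with a median log2 fold change of 0.64. The 3 that rose were all VPS10 receptors, the family of sortilin. The ranges of Sorcs1 did not overlap, as held for 4.72% of all tested genes. Its product sorts neurexin and AMPA receptors to the neuronal surface. The transcript ran from 44.4 to 99.2 CPM in CRE and from 13.9 to 33.1 CPM in RFP. Its log2 fold change was 1.49 (SE 0.16; adjusted p = 8.32e-08, edgeR's quasi-likelihood test, Benjamini-Hochberg adjusted). Sorl1, which encodes SorLA, a sorting receptor for the amyloid precursor protein and TrkB, ran from 79.6 to 176 CPM in CRE and from 70.0 to 110 CPM in RFP. All CRE libraries but 1 lay above RFP, and the log2 fold change was 0.70 (SE 0.13; adjusted p = 0.000128, by the same edgeR test). Sorcs2, whose product pairs with p75 as sortilin does, ran from 107 to 181 CPM in CRE and from 79.3 to 105 CPM in RFP, again with no overlap, and gave a log2 fold change of 0.48 (SE 0.10; adjusted p = 0.000544, by the same edgeR test). The last of the family, Sorcs3, had a log2 fold change of 0.17 and did not pass (adjusted p = 0.484, by the same edgeR test). The calls of Sorcs1, Sorl1 and Sorcs2 held in all 13 other settings.

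**Figure D2:**
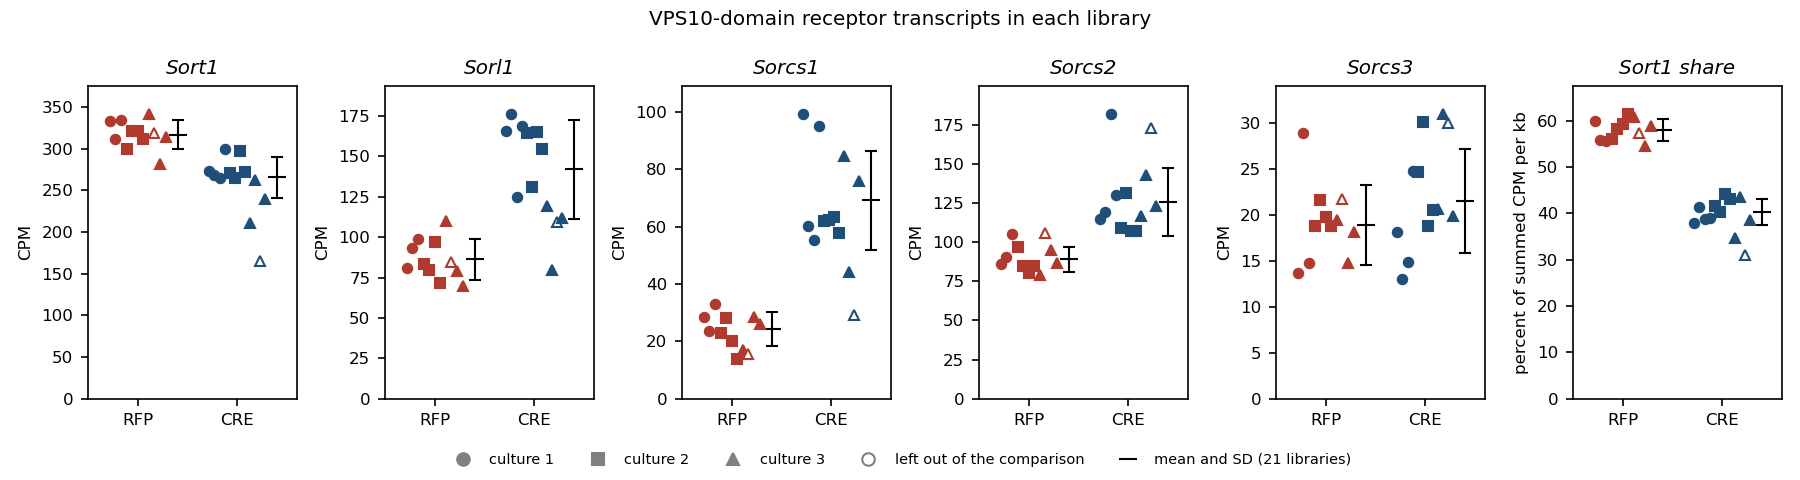
CPM of the 5 VPS10 receptor transcripts in each library (y axes linear from 0; RFP red, CRE blue, cultures by symbol, open symbols left out, mean and SD beside each group), and the percent of their summed CPM per kilobase held by Sort1. Sort1 is lower in CRE while Sorl1, Sorcs1 and Sorcs2 are higher, and its share runs from 34.7% to 44.3% in CRE and from 54.6% to 61.3% in RFP.

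Put per kilobase of transcript, Sort1 held a median of 58.5% of the summed signal of the 5 VPS10 genes in RFP libraries, from 54.6% to 61.3%. In CRE its median share was 40.3%, from 34.7% to 44.3%, so the shares of the groups did not meet. The number of Sort1 counts for each Sorcs1 count had a median of 12.5 in RFP and 4.35 in CRE. Both comparisons were chosen after the values had been seen and carry no test.

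Of the other relatives, Nradd, a gene related to p75, had 0 to 51 counts. Its log2 fold change of 1.36 (SE 0.54) did not pass (adjusted p = 0.0585, edgeR's quasi-likelihood test, Benjamini-Hochberg adjusted), although it passed in 2 of the other settings. Ntf5, the gene of neurotrophin-4, had at most 14 counts, too few to be tested, and shares 1136 exonic bases with Ruvbl2 on the opposite strand.

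**Figure D3:**
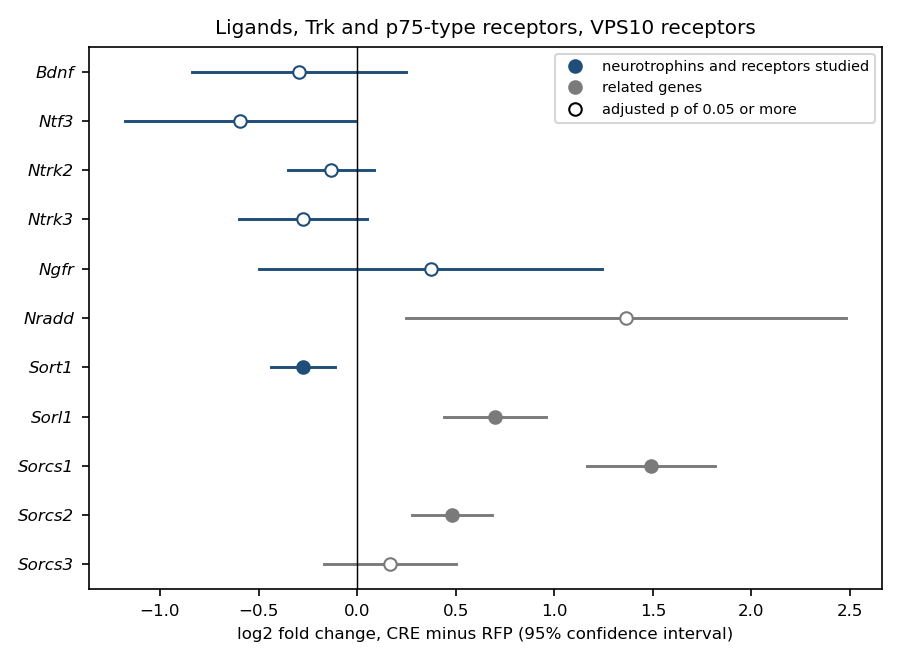
Log2 fold change of CRE over RFP (x axis) with its 95% confidence interval for the 6 transcripts (blue) and 5 of the tested relatives (grey), filled where the adjusted p was under 0.05. Sort1 is the only filled point to the left of 0, at -0.27, and Sorl1, Sorcs1 and Sorcs2 are filled to the right, at 0.70, 1.49 and 0.48.

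Genes that act before and after the receptors were taken as lists chosen by function. Over all genes tested 16.4% rose and 13.8% fell, which is the background for each list below and for the cell markers after them. Processing and release of the precursors was represented by 20 tested genes, of which 3 rose and 5 fell, with a median log2 fold change of -0.05. Plat, the plasminogen activator that starts the cutting of proBDNF outside the cell, rose from 33.2 ± 5.36 to 114 ± 35.7 CPM (SD), a log2 fold change of 1.76. The matrix protease gene Mmp3 rose by 3.52 on the log2 scale from a very low level, and Cpe, whose carboxypeptidase sorts BDNF into dense-core vesicles, rose by 0.40. Vamp2, the vesicle SNARE, changed by -0.49, Hap1, the huntingtin partner that takes part in BDNF transport, by -1.30, and the proprotein convertase gene Pcsk5 by -1.13.

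The adaptors and effectors of Trk kinases numbered 52 tested genes, of which 8 rose and 6 fell, with a median of 0.00. The share called was close to that of all genes. Shc1, an adaptor that binds the active kinase, rose from 11.4 ± 2.92 to 68.9 ± 12.3 CPM (SD), a log2 fold change of 2.57. The insulin receptor substrates Irs2 and Irs1 rose by 0.95 and 0.85 on the log2 scale. On the other side stood the protein kinase C gene Prkce at -0.98 and the ERK kinase gene Mapk3 at -0.51.

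Downstream of p75, 6 of 31 genes rose and 5 fell, with a median of 0.01. Sqstm1, which encodes the scaffold p62, rose by 0.69 on the log2 scale and Trp53 by 0.96. The adaptor gene Traf4 changed by -0.95, and the partners of p75 in the myelin inhibitor receptor also fell, Rtn4r at -1.11 and Lingo1 at -1.05.

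In the list for Trk trafficking and turnover, 4 of 26 genes rose and 4 fell, with a median of -0.01. Ehd4, which encodes an endosomal ATPase of Trk receptor uptake, rose by 1.90 on the log2 scale, and the receptor regulators Lrig1 and Lrig2 by 0.90 and 0.60. The 3 falls with the smallest p were Sh3gl2 at -0.99, which encodes an endophilin, Islr2 at -1.25 and Slitrk5 at -0.40, the last of which encodes a membrane protein that directs TrkB recycling.

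Inputs to Bdnf transcription, such as glutamate receptors, calcium channels, kinases and transcription factors, gave 5 higher and 7 lower of 31 tested genes, with a median of -0.11. The falls included Camk2a, from 1560 ± 335 to 399 ± 103 CPM (SD), a log2 fold change of -1.99, Grin2b at -0.98 and the L-type calcium channel gene Cacna1c at -0.55. Bhlhe40, Rest and Crtc3 rose by 0.90, 0.80 and 0.64. Rest encodes a repressor of neuronal genes, Bdnf among them. Bdnf itself, as given above, did not pass the test in either direction.

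Of 30 genes that respond to Trk and ERK signalling 15 rose and 5 fell, with a median of 0.48, beside 16.4% and 13.8% of all genes and a median of 0.02. The list was described by its counts and was not tested as a set. The ERK phosphatase genes Dusp6 and Dusp4 rose by 1.80 and 2.10 on the log2 scale, and Spry4, the gene of a feedback inhibitor of receptor tyrosine kinases, by 1.43. Dusp6 went from 47.6 ± 10.1 to 168 ± 13.3 CPM (SD). The list did not move as 1 block, since Klf10 stood at -1.10, Egr3 at -1.56 and Nptx1 at -1.18. Other receptors feed into the same genes, and the counts do not tell which was active.

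**Figure D4:**
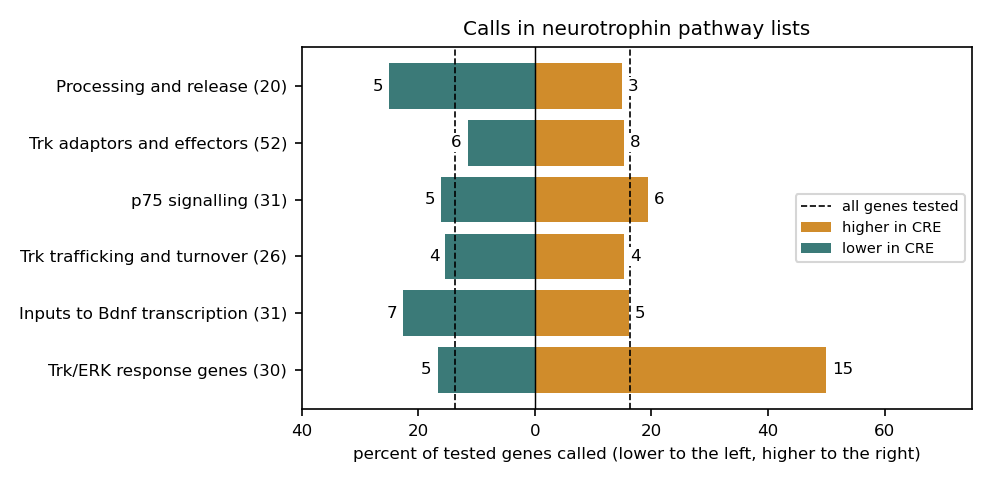
Percent of the tested genes that passed the test in each of 6 lists of neurotrophin pathway genes (x axis; higher in CRE to the right, lower to the left), with the number of genes at each bar, list sizes in brackets and dashed lines at the shares of all genes tested, 16.4% and 13.8%. Of these 6 lists, the response genes have the longest bar on the right, with 15 of 30.

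Marker transcripts of several cell types differed between the groups as well, not always in 1 direction within a type. Of 10 neuronal markers 6 fell and 1 rose, and their summed level was 3543 to 6625 CPM in CRE and 6664 to 7991 CPM in RFP. Of 9 markers of glutamatergic neurons 6 fell and none rose (830 to 2043 against 2292 to 4648 CPM summed), and of 5 tested markers of dentate granule neurons 4 fell. Markers of GABA neurons gave 4 higher and 3 lower of 12, and those of Cajal-Retzius cells 1 lower of 4. Among other cells, astrocyte markers gave 2 higher and 4 lower of 12, oligodendrocyte lineage markers 7 lower of 10, and endothelial and mesenchymal markers 3 higher of 9, the last with a summed level of 181 to 542 CPM in CRE and 26.1 to 187 CPM in RFP. Microglial markers were nearly absent, at no more than 8.06 CPM summed in any of the 21 libraries, and 1 of 2 tested was higher. Since Ntrk2 is made by neurons and astrocytes, and Sort1 by many cells, these differences accompany the values above, and their part in them was not tested.

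Within the groups, the transcripts were compared with all tested genes by Pearson's r of log2 CPM over the 21 libraries after the group means had been subtracted, as a description with no test. Ntrk2 was most like Slc39a12 (r = 0.90), Selenop (r = 0.89) and Gja1 (r = 0.89), and its r with these was 0.88 to 0.89 over 19 libraries. Bdnf was most like Mthfd2 (r = 0.86), Tmed3 (r = 0.84) and Slc7a1 (r = 0.80). Ntf3 was most like Rassf3 (r = 0.89), Socs5 (r = 0.80) and Arpc3 (r = 0.77). Sort1 was most like Syt2 (r = 0.74), Tsc22d3 (r = 0.74) and Srxn1 (r = 0.72), which all rose in CRE while Sort1 fell. Ngfr was most like Ccdc142os (r = 0.75), Fhod1 (r = 0.75) and Igfbp7 (r = 0.72). Ntrk3 had the closest likeness, to Grin2a (r = 0.96), Gabrb1 (r = 0.95) and Zfp451 (r = 0.95), but over 19 libraries, without CRE 1-3 and RFP 2-4, these were 0.79, 0.67 and 0.64. Among the 6 themselves the values lay between -0.55 for Ngfr and Sort1 and 0.44 for Bdnf and Sort1, with -0.50 for Bdnf and Ntrk2. CRE 3-2 held both the highest Bdnf and the lowest Ntrk2 of the 21 libraries, and no value was taken without it. For Ntf3 and its receptor Ntrk3 the value was 0.03. The 21 points share libraries, depth and culture, and are not independent of either.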

How the data were processed

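RNA was sequenced from 23 hippocampal culture libraries. The authors prepared stranded mRNA libraries and deposited raw counts per Ensembl gene; the submitters' processing notes name bcl2fastq 2.20.0.422, STAR 2.7.8a and featureCounts 1.5.0-p1, and the build was GRCm39. The strand setting of the counting is not given in the sources used here. Gene names were matched to GENCODE for GRCm39 (56323 of 56941 identifiers). Counts were filtered by filterByExpr, scaled by TMM and tested with the quasi-likelihood test of edgeR 4.0.16 with Benjamini-Hochberg adjustment over 14488 genes, at an adjusted p under 0.05. Ratios within a library (0.5 added to each count) were compared by a two-sided permutation test with 100000 resamples, adjusted over 3 ratios. The methods name CRE 1-3 and CRE 3-3 as removed, whereas the count table of the study lacks CRE 3-3 and RFP 3-2; the latter set was used and the former tried as an alternative. Other alternatives were all 23 libraries, 19 libraries, DESeq2 1.42.0, its size factors, no filter, a block for the culture or the library number, counts summed per culture, removal of a trend with GC content, and leaving out each culture. Scripts were tested on simulated data. Promoter windows were read from GRCm39 at GENCODE transcript starts. The text names the 6 genes, their relatives, up to 3 higher and 3 lower genes of each list by smallest p, the 3 genes most like each, and Nedd8. Some genes this rule names are not reported here. The genes and lists were chosen with earlier results of these data known.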

Additional observations from a re-analysis of the deposited data

How the results depend on the processing

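Over 13 settings beside the one reported, the number of the 6 transcripts called was 2 with 19 libraries and with the trend with GC content removed, 0 with no filter on low counts and with sums per culture, and from 0 to 1 when a culture was left out. Sort1 was lower in all 13, at -0.26 with no filter and -0.30 with sums per culture, the settings that lost its call beside leaving out a culture (-0.30 to -0.25). Ntrk3 passed at -0.23 with 19 libraries and -0.27 with the GC trend removed, and ran from -0.41 to -0.13 over all settings. Bdnf reversed to 0.068 without culture 1 (range over cultures left out -0.52 to 0.068). The number of genes called in all was 6920 with no filter and 2114 to 3730 when a culture was left out. The log2 difference in the Ngfr to Ntrk2 ratio reversed to -0.055 with all 23 libraries. Leaving out a culture gave from -0.031 to 0.40 for Ntrk2 to Ntrk3 and from -0.11 to 0.76 for Bdnf to Ntf3. The causes were not tested. Deviations from the group means correlated at 0.03, 0.02 and 0.14 between CRE and RFP cultures of equal number. Between unequal numbers the values ran from -0.19 to 0.14. With so few cultures these values cannot decide whether equal numbers shared a preparation. As a replicate block, the culture numbers gave -0.28 for Sort1 and changed no call among the 6. Depth limits Ngfr and Ntf3, with at most 107 counts in a library.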

Other observations

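Other families of neurotrophic factors were counted in the same fit. Of 9 tested genes of the CNTF and LIF family 6 rose and 1 fell, with a median log2 fold change of 0.84. Their shared receptor subunit gene Il6st went from 101 ± 9.36 to 177 ± 34.6 CPM (SD, n = 10 and 11), a log2 fold change of 0.79. Osmr rose by 3.62 and the ligand gene Lif by 1.82, both from low RFP means of 2.10 and 2.51 CPM. In the GDNF family 2 of 6 tested genes rose, the receptor genes Gfra1 by 1.08 and Gfra2 by 0.86, and 2 fell, Gfra4 at -0.66 and Ncam1 at -0.35. Among 21 genes of other growth factors and their receptors 10 rose and 2 fell, with a median of 0.62. Fgfr2 rose by 1.69, the neuregulin gene Nrg1 by 1.75 and Igf1r by 1.13, whereas Nrg3 stood at -0.68 and Kdr at -1.22. Kdr was scarce, with means of 4.30 CPM in RFP and 1.85 in CRE, and 1 of 11 CRE libraries lay below all RFP libraries. Over all genes tested 16.4% rose and 13.8% fell. All calls are at an adjusted p under 0.05 by edgeR's quasi-likelihood test, Benjamini-Hochberg adjusted, and the lists were chosen with earlier results of these data known.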
